A study of Mus musculus with 3 samples.

Results

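The nuclear-encoded subunits of the mitochondrial respiratory chain and ATP synthase were followed in cultured mouse dermal fibroblasts of 3 genotypes. Members were the genes whose probe set carried a single symbol that begins with Nduf, Uqcr, Atp5, Cox4, Cox5, Cox6, Cox7 or Cox8, or is Sdha, Sdhb, Sdhc or Sdhd. The rule used names and no measured value. It gave 58 of the 7842 genes on the array, with 28 in complex I, 4 in complex II, 7 in complex III, 11 in complex IV and 8 in complex V. Among the 28 are 2 assembly factors, Ndufaf1 and Ndufaf4, which the rule takes by name although they are no subunits. A further 7 probe sets whose annotation joins a symbol of this kind with another gene were left out.

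RNA was measured on Affymetrix expression arrays, with 1 deposited column per genotype. In FGFR3Act cells, from Fgfr3G374Rneo- mice, the receptor tyrosine kinase Fgfr3 is, per the labels, active without its ligand; the allele's name carries G374R. FGFR3KO cells came from FGFR3G374Rneo+ mice, which per the labels lack a functional receptor. FGFR3WT cells were from Bl6 mice of wild type. All cells were grown in fibroblast medium without treatment. The labels give no age, passage or number of pooled animals, and no strain for the mutants, so an effect of strain and one of the Fgfr3 allele cannot be told apart. The series states n = 3 per group, but with 1 column each there is no spread between replicates, and every difference below is one between 2 arrays, without a test.

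The respiratory chain carries electrons from NADH (complex I) and succinate (complex II) through ubiquinone, complex III and cytochrome c to oxygen (complex IV). Complexes I, III and IV pump protons across the inner mitochondrial membrane, and complex V, ATP synthase, uses the gradient to make ATP. Most subunits are made from nuclear genes and join those encoded in mitochondrial DNA. Dividing cultured fibroblasts also make much of their ATP by glycolysis.

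As a group the members were bright on these arrays, which is no measure of their accuracy. Their median signal was 1062 in FGFR3Act, 1445 in FGFR3KO and 1457 in FGFR3WT, against 245, 250 and 253 for all genes. The 40th percentile of each array (signals of 121 to 123) served as a floor, and dimmer signals were raised to it before a difference was taken. Of the 58 members, 52 were above the floor on all 3 arrays, 3 on some and 3 on none. The 3 on none were Ndufs4, the testis isoform Cox6b2 and the muscle isoform Cox7a1. Above it on some were Ndufa6, Ndufaf4 and Atp5e. Signals depend on the probes as well as on the transcript, so levels are compared only within a gene. Where 3 signals of a gene are given without names, they stand in the order FGFR3Act, FGFR3KO, FGFR3WT.

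**Figure D1:**
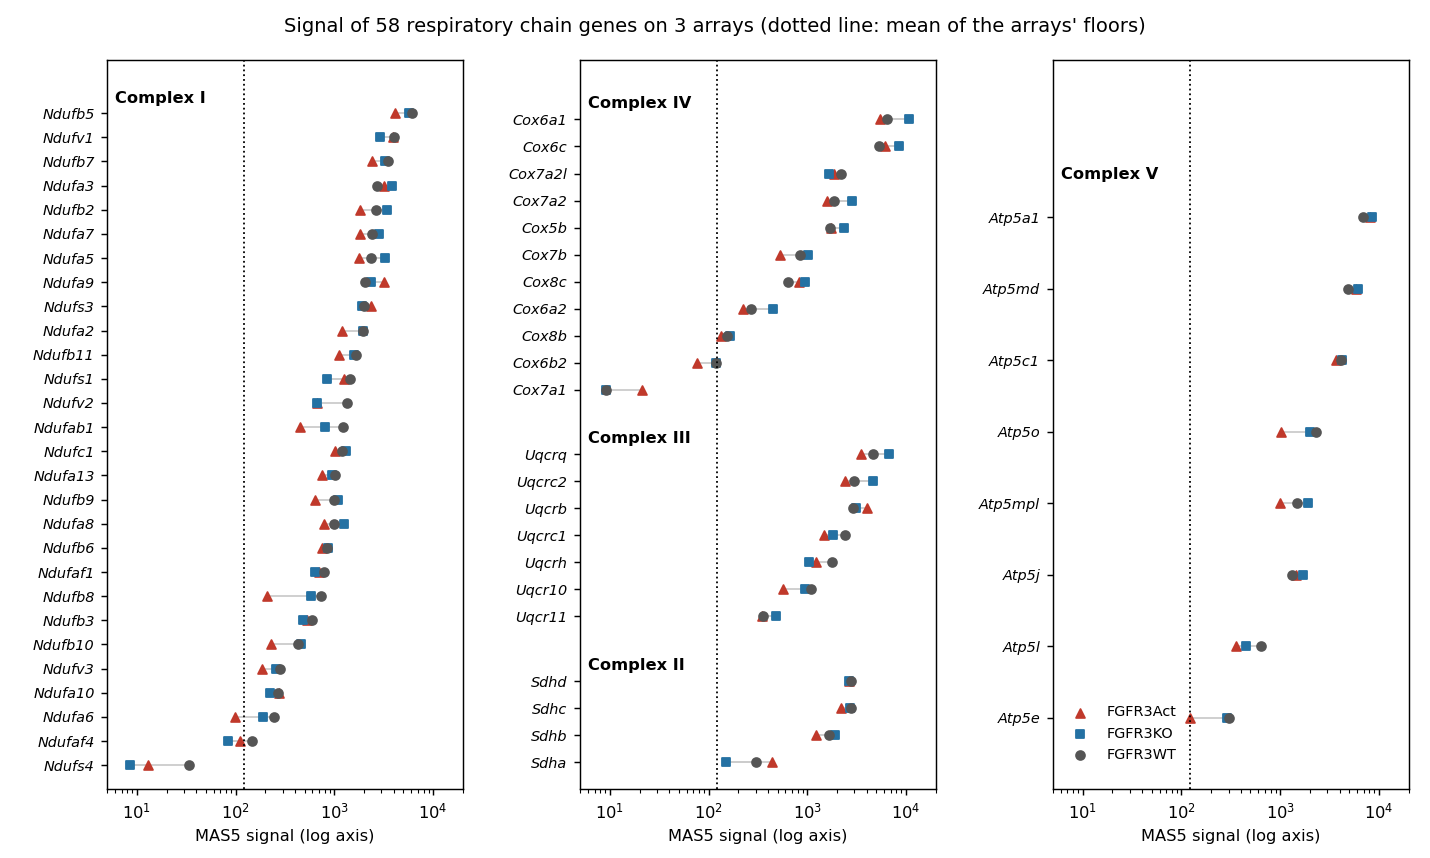
MAS5 signal (log axis) of each of the 58 members on the FGFR3Act, FGFR3KO and FGFR3WT arrays, grouped by complex, 1 point per array; the dotted line is the mean of the 3 floors. Ndufb8 has the widest gap to the left in FGFR3Act within complex I, and the FGFR3KO points of Cox6a1, Cox6c and Cox7a2 lie to the right of the others.

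Promoters are shown for members whose values are described below, because nuclear respiratory factor 1 (NRF1) and ETS factors such as GABP are known regulators of many such genes. RefSeq promoter windows of build GRCm38.p6 (250 bases before to 50 after the start) matched 46 of the 58 members. The letters GCGCA, any base, GCGC, a form of the NRF1 motif, were found on either strand in 10 of 46 members, or 21.7%, against 9.92% of 6269 array genes with a promoter. The letters CCGGAAG, the core of ETS and GABP motifs, were found in 13 of 46, or 28.3%, against 16.7%. The YY1 letters AAGATGGCG occurred in 4 of 46 (8.7% against 2.92%), the CREB letters TGACGTCA in 2 (4.35% against 3.11%) and the E-box CACGTG in 3 (6.52% against 11.5%). All 5 motifs were searched on both strands, and matches of different motifs overlapped in 0 of the 46. The stretches below run 5′ to 3′ on the gene's strand, end at or before the start, and carry the NRF1 match (first 3) or the ETS match on either strand (last 3) in capitals. A match is a description of the letters.
Cox6a1, chr5:115349076-115349155, minus strand: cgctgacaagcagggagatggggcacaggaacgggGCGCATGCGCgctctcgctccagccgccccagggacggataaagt
Ndufa8, chr2:36049339-36049403, minus strand: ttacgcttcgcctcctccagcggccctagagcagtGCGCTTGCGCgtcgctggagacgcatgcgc
Sdha, chr13:74350294-74350373, minus strand: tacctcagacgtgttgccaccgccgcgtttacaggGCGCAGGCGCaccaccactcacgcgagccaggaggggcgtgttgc
Atp5e, chr2:174464162-174464238, minus strand: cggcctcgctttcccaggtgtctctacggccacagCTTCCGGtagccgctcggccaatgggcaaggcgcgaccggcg
Ndufb7, chr8:83566703-83566757, plus strand: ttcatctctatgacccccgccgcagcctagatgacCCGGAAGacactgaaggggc
Uqcr11, chr10:80406846-80406922, minus strand: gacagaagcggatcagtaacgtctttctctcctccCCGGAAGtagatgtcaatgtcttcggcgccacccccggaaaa

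Other facts of the arrays touch these results. The single probe set of Fgfr3 lay below the floor on every array, at 2.42 in FGFR3Act, 3.76 in FGFR3KO and 1.06 in FGFR3WT, so it gives no check of the genotypes. Of 11 fibroblast markers, 11 exceeded the floor on each array. Of 14 macrophage markers, 12 exceeded it in FGFR3Act and 1 (Cd14) in each of the others, with summed signals of 35448 in FGFR3Act, 1126 in FGFR3KO and 1042 in FGFR3WT. The leukocyte marker Ptprc stayed below the floor on all 3. The ratio of the 3′ to the 5′ control probe set of beta-actin was 1.44 in FGFR3Act, 1.82 in FGFR3KO and 1.64 in FGFR3WT. The part of other cells and of RNA length in the differences below was not tested, and fewer cells of a type and less RNA per cell cannot be told apart in such bulk RNA. One internal measure of error is the disagreement between 2 probe sets of the same gene, both above the floor. Its median was 0.30 in log2 for FGFR3Act against FGFR3WT, 0.39 for FGFR3KO against FGFR3WT and 0.43 for FGFR3Act against FGFR3KO, over 425, 422 and 407 genes, so a difference of this size in 1 gene is within the noise of its probes.

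On FGFR3Act the chain's transcripts were mostly lower than on FGFR3WT. Of 55 members that exceeded the floor in one array of the pair or both, 43 were lower and 12 higher, or 78.2% lower against 55.7% of all genes. The median log2 difference was -0.29, against -0.07 over all 5244 genes compared. At least 1.5-fold lower were 14 members (25.5%), against 16.3% of all genes, and at least 1.5-fold higher was 1 (1.82% against 11.4%). Over all genes the counts behind these shares were 596 higher and 856 lower. After cyclic loess, another scaling, they were 705 and 664, with 42 of the 55 members lower. At least 2-fold lower were 5 (9.09%, against 4.79%), namely Ndufb8, Ndufab1, Ndufv2, Atp5o and Atp5e, and 0 were at least 2-fold higher (against 4.14%). The direction was shared by most members, while few single genes were far apart. The macrophage markers differ between the same 2 arrays, by a median of 3.75 in log2 over 12 genes. Between these arrays the control probe sets of beta-actin were 1.36 to 1.55 times as bright in FGFR3Act and those of 18S rRNA 0.501 to 1.12 times. The control probe set of Gapdh was 0.552 times as bright in FGFR3Act. The part of these markers and controls in the result was not tested.

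On FGFR3KO the members as a whole lay close to FGFR3WT, with complexes on either side. Of 55 members, 29 were higher and 26 lower, and the median was 0.03 against -0.02 over 5184 genes, and -0.08 with plain probe sets alone (those without a letter such as _f_ in the name). At least 1.5-fold higher were 5 (9.09%, against 10.3% of all genes) and at least 1.5-fold lower 5 (9.09%, against 13.7%). At least 2-fold lower were Ndufv2 and Sdha (3.64%, against 3.61%), and 0 were at least 2-fold higher (against 1.93%). Both comparisons use the same FGFR3WT array, so their values are given side by side and not as 2 independent results.

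**Figure D2:**
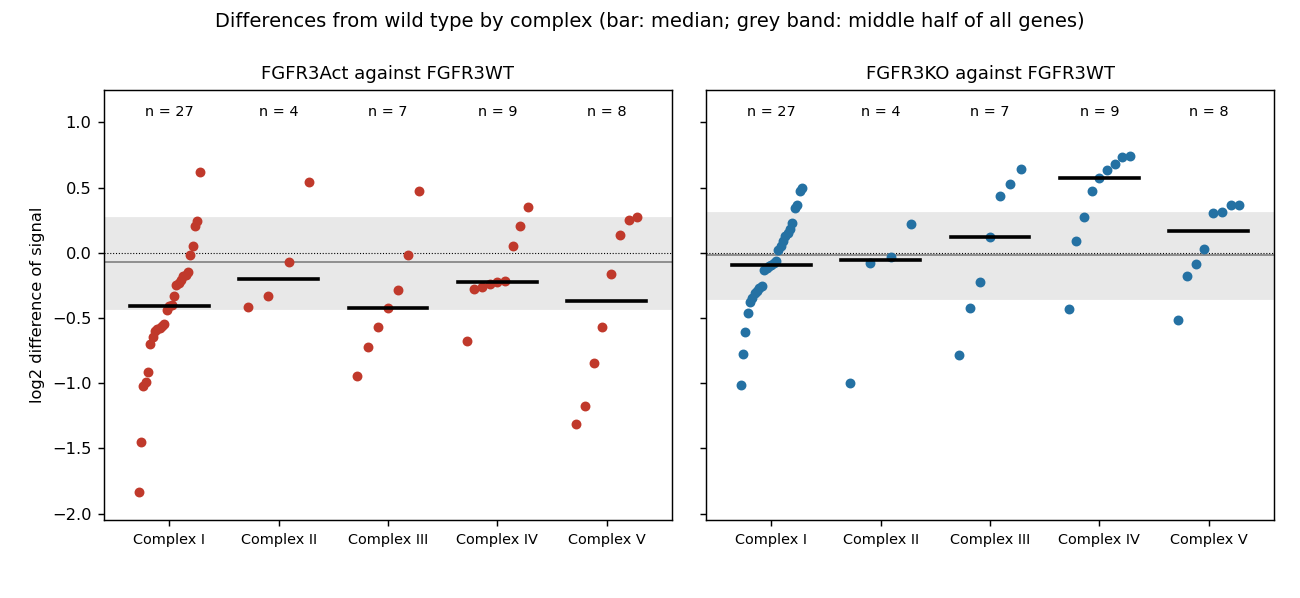
log2 difference of signal of each member from FGFR3WT, by complex, for FGFR3Act (left) and FGFR3KO (right); black bars are medians, the grey line and band are the median and the lower to upper quartile of all genes. On FGFR3Act the medians of all 5 complexes lie below 0, while on FGFR3KO complex IV has a median of 0.58 and complex I one of -0.09.

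In complex I most transcripts were lower on FGFR3Act. Its 27 measured members had a median of -0.40, with 23 lower and 4 higher. The share lower was 85.2%, against 55.7% of all genes, 78.2% of all members and 85.7% of complex III. At least 1.5-fold lower were 8 (29.6%, against 16.3% of all genes). Without the 2 assembly factors the median was -0.43. On FGFR3KO the median was -0.09, with 16 lower and 11 higher. Complex I has a peripheral arm that oxidises NADH and a membrane arm that pumps protons, and the genes are described by name series, a grouping made after the values were seen. The Ndufb members lie in the membrane arm and the Ndufs and Ndufv members in the peripheral arm, which also holds some Ndufa subunits.

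The Ndufb subunits, small proteins of the distal membrane arm, were lower on FGFR3Act than on FGFR3WT in 9 of 9. Their median was -0.58, and of all genes 55.7% were lower. Ndufb8 had signals of 206 in FGFR3Act, 576 in FGFR3KO and 732 in FGFR3WT, 3.55-fold lower on FGFR3Act than on FGFR3WT. Ndufb10 had 229, 459 and 430, 1.88-fold lower. Ndufb9 had 636, 1099 and 992, 1.56-fold lower. In these 3 genes the FGFR3Act array stood below the other arrays, which lay within 1.27-fold of each other. Ndufb5 (4080, 5756 and 6086), Ndufb7 (2411, 3220 and 3521) and Ndufb11 (1108, 1585 and 1659) were 1.49-, 1.46- and 1.5-fold lower on FGFR3Act, each differing by at most 1.09-fold between FGFR3KO and FGFR3WT. Ndufb3 (524, 485 and 594) and Ndufb6 (758, 868 and 838) differed least, at 1.13- and 1.11-fold lower on FGFR3Act. Against FGFR3KO, 8 of 9 were lower on FGFR3Act, Ndufb3 being the exception at 1.08-fold higher.

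Ndufb2 was measured by 3 probe sets. The one taken gave 1802 in FGFR3Act, 3418 in FGFR3KO and 2657 in FGFR3WT, and the second 717, 1680 and 1298. Both put FGFR3Act lowest and FGFR3KO highest, with log2 differences from FGFR3WT of -0.56 and -0.86 on FGFR3Act and of 0.36 and 0.37 on FGFR3KO. The third was below the floor on every array, with signals of 5.85 to 6.99.

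All 5 measured Ndufs and Ndufv members had a negative difference from FGFR3WT on FGFR3KO, with a median of -0.46. Of all genes 51.5% were lower there. On FGFR3Act 4 of 5 were lower, against 55.7% of all genes, with a median of -0.21. On FGFR3KO Ndufs3 and Ndufv3 were each only 1.07-fold lower, well within the median disagreement between probe sets (0.39 in log2). A lower signal on FGFR3KO does not hold for the whole peripheral arm, since its subunit Ndufa5 exceeded FGFR3WT by 1.39-fold there. Ndufv1, which binds NADH and the flavin that takes up its electrons, had signals of 3967 in FGFR3Act, 2920 in FGFR3KO and 4012 in FGFR3WT. It was 1.37-fold lower on FGFR3KO and 1.01-fold lower on FGFR3Act. Ndufs1, the large iron-sulfur subunit, had 1249, 840 and 1441 and was 1.71-fold lower on FGFR3KO and 1.15-fold lower on FGFR3Act. In both genes FGFR3KO was the array apart.

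Ndufv2, an iron-sulfur subunit next to Ndufv1, had signals of 662 in FGFR3Act, 667 in FGFR3KO and 1347 in FGFR3WT. It was lower by 2.03-fold on FGFR3Act and 2.02-fold on FGFR3KO, and the mutant arrays differed by 1.01-fold. Here FGFR3WT was the array apart. Ndufv3, a small accessory subunit, had 183, 259 and 278 and was 1.52-fold lower on FGFR3Act and 1.07-fold lower on FGFR3KO. Ndufs3, a core subunit of the link to ubiquinone, varied least, with 2331, 1891 and 2018. Ndufs4 was below the floor throughout, at 12.8, 8.59 and 33.3.

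The A-series subunits, accessory proteins of both arms, went both ways. On FGFR3Act 6 of 9 were lower than on FGFR3WT and 3 higher, with a median of -0.40, and on FGFR3KO 3 were lower and 6 higher, with a median of 0.18. Ndufa9, at the junction of the arms, was the member at least 1.5-fold higher on FGFR3Act, with 3176 against 2345 on FGFR3KO and 2064 on FGFR3WT (1.54-fold). Ndufa6 had 99.0 on FGFR3Act, below the floor, against 188 and 244, at least 1.99-fold lower than on FGFR3WT. Ndufa2 had 1191, 1957 and 1932, 1.62-fold lower on FGFR3Act than on FGFR3WT.

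Other A-series genes had their highest signal on FGFR3KO. Ndufa5, of the peripheral arm, had 1775 in FGFR3Act, 3261 in FGFR3KO and 2349 in FGFR3WT. Ndufa8, whose NRF1 letters are printed above, had 781, 1247 and 982. Ndufa7 (1837, 2832 and 2421) and Ndufa3 (3198, 3819 and 2706) were also highest there. In Ndufa5, Ndufa7 and Ndufa8 the order was FGFR3Act, FGFR3WT, FGFR3KO, with 1.84-, 1.54- and 1.60-fold between the mutants. Ndufa10 (276, 221 and 266) and Ndufa13 (753, 937 and 1018) stayed within 1.35-fold of FGFR3WT.

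Ndufab1, the mitochondrial acyl carrier protein that also serves fatty acid and lipoic acid synthesis, had signals of 453 in FGFR3Act, 811 in FGFR3KO and 1234 in FGFR3WT. It was 2.73-fold lower on FGFR3Act and 1.52-fold lower on FGFR3KO. Ndufc1, a small membrane-arm subunit, had 1016, 1304 and 1195. The assembly factor Ndufaf1 had 700, 633 and 786, and Ndufaf4 111, 82.9 and 145, above the floor on FGFR3WT alone.

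**Figure D3:**
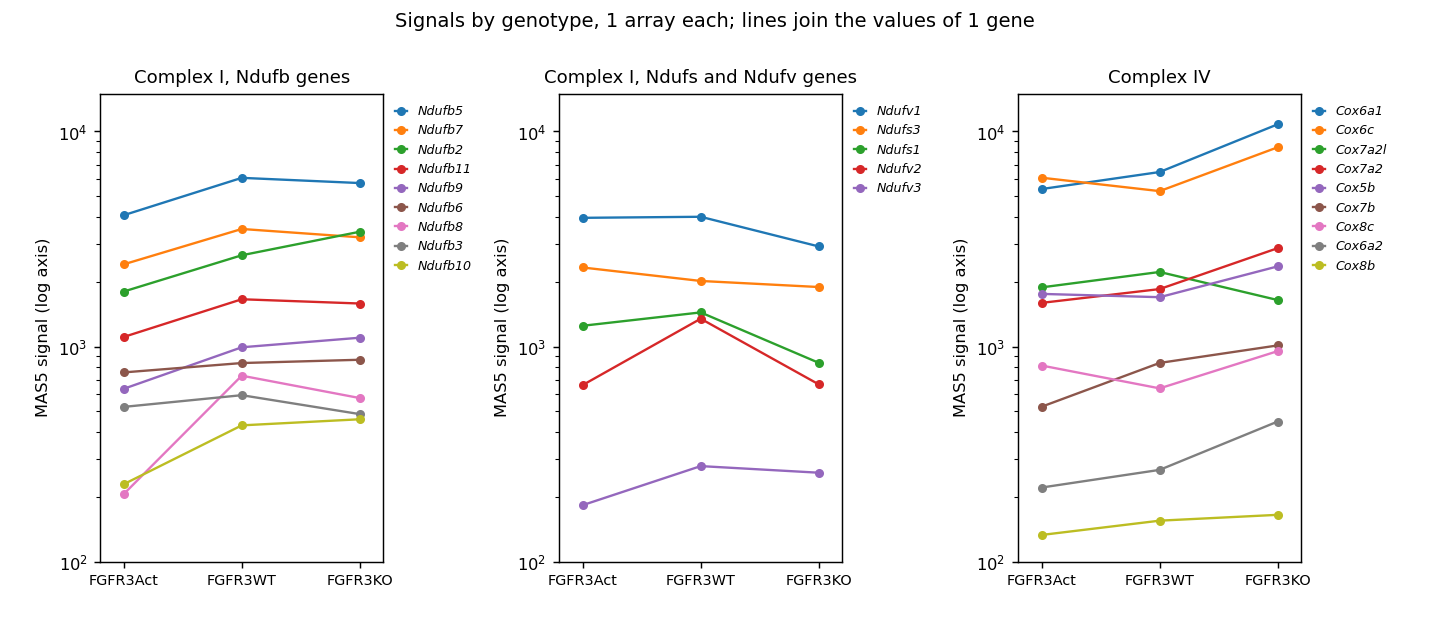
MAS5 signal (log axis) on the FGFR3Act, FGFR3WT and FGFR3KO arrays for 9 Ndufb genes and 5 Ndufs and Ndufv genes of complex I and the 9 genes of complex IV above the floor; lines join the values of 1 gene. All 9 Ndufb genes are lower on FGFR3Act than on FGFR3WT, and 8 of 9 complex IV genes are highest on FGFR3KO. All 5 Ndufs and Ndufv genes are lower on FGFR3KO than on FGFR3WT, Ndufs3 and Ndufv3 by only 1.07-fold.

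Complex II, succinate dehydrogenase, links the TCA cycle to the chain and is wholly nuclear-encoded. Its 4 genes had medians of -0.20 on FGFR3Act and -0.06 on FGFR3KO, and 1 gene stood apart. Sdha, the flavoprotein that oxidises succinate, had signals of 441 in FGFR3Act, 151 in FGFR3KO and 303 in FGFR3WT. It was 1.46-fold higher on FGFR3Act and 2.0-fold lower on FGFR3KO than on FGFR3WT, and 2.91-fold higher on FGFR3Act than on FGFR3KO. It was the only member at least 2-fold higher in that pair, and its FGFR3KO signal lay close to the floor of 122.

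The partners of Sdha did not share this order. Sdhb, the iron-sulfur subunit, had 1237 in FGFR3Act, 1926 in FGFR3KO and 1651 in FGFR3WT, the reverse order. The membrane anchors Sdhc (2192, 2693 and 2758) and Sdhd (2636, 2618 and 2771) differed by at most 1.26-fold from FGFR3WT.

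Complex III passes electrons from ubiquinol to cytochrome c. Its 7 members were lower on FGFR3Act than on FGFR3WT in 6 (85.7%, against 55.7% of all genes), with a median of -0.42. At least 1.5-fold lower were 2 (28.6%, against 16.3%), Uqcr10 and Uqcrc1. On FGFR3KO 4 were higher and 3 lower, with a median of 0.12, which was -0.23 over the 5 plain probe sets. The core proteins Uqcrc1 and Uqcrc2 differed from each other. Uqcrc1 had 1466 in FGFR3Act, 1803 in FGFR3KO and 2418 in FGFR3WT and was 1.65-fold lower on FGFR3Act and 1.34-fold lower on FGFR3KO. Uqcrc2 had 2417, 4603 and 2951 and was 1.22-fold lower on FGFR3Act and 1.56-fold higher on FGFR3KO.

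Among the small subunits of complex III, Uqcr10 had 571 in FGFR3Act, 942 in FGFR3KO and 1101 in FGFR3WT, 1.93-fold lower on FGFR3Act. Uqcrh, the acidic hinge protein, had 1215, 1050 and 1802 and was highest on FGFR3WT, 1.48-fold above FGFR3Act and 1.72-fold above FGFR3KO. Uqcrq had 3485, 6751 and 4674 and Uqcr11 349, 477 and 353, both highest on FGFR3KO. Uqcrb, which lies by a ubiquinone site, had 4026, 3154 and 2896 and was the one member of complex III higher on FGFR3Act than on FGFR3WT (1.39-fold). Subunits of this complex thus took 3 different arrays as their highest.

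Complex IV, cytochrome c oxidase, had the highest median of the 5 complexes in FGFR3KO against FGFR3WT. Of its 9 measured members 8 were higher there than on FGFR3WT (88.9%, against 48.5% of all genes) and 1 was lower. The median was 0.58, and 4 were at least 1.5-fold higher (44.4%, against 10.3% of all genes). Cox6a1 had signals of 5399 in FGFR3Act, 10798 in FGFR3KO and 6478 in FGFR3WT (1.67-fold higher on FGFR3KO than on FGFR3WT). Cox6c had 6095, 8443 and 5280 (1.60-fold) and Cox7a2 1596, 2867 and 1850 (1.55-fold). Cox5b, a nuclear subunit on the matrix side, had 1757, 2359 and 1696 (1.39-fold), and Cox7b 525, 1012 and 839 (1.21-fold). In all 5 the FGFR3KO array was highest.

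On FGFR3Act the 9 had a median of -0.22 against FGFR3WT, with 6 lower and 3 higher. Cox7b was the one at least 1.5-fold lower (1.60-fold), or 11.1% against 16.3% of all genes. The exception on FGFR3KO was Cox7a2l, a factor that helps join complexes III and IV into supercomplexes, with 1884, 1645 and 2222 (1.35-fold lower than on FGFR3WT). The probe sets of Cox6a1 and Cox6c are of the _f_ kind, which can read related sequences. With 6 plain probe sets left, 5 were higher on FGFR3KO, with a median of 0.53. On the same pair of arrays the control probe sets of beta-actin were 1.48 to 1.65 times as bright in FGFR3KO. Those of 18S rRNA were 1.65 to 2.44 times as bright, and that of Gapdh 0.91 times. Their part in the result was not tested.

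Tissue isoforms of complex IV were read from the same arrays. Cox6a2, the heart and skeletal muscle partner of Cox6a1, had 221 in FGFR3Act, 448 in FGFR3KO and 267 in FGFR3WT, 1.68-fold higher on FGFR3KO, close to the 1.67-fold of Cox6a1. Cox8b, another muscle isoform, had 133, 165 and 155, just above the floor. The probe set of the testis isoform Cox8c had 816, 952 and 639. Of 6 skeletal muscle markers, the floor was exceeded by 2 in FGFR3Act, 3 in FGFR3KO and 1 in FGFR3WT, with summed signals of 619, 758 and 447. Cox7a1 had signals of 21.1, 9.09 and 9.21, and the 3 probe sets of Cox6b2 lay between 3.68 and 120, all below the floor. Of the 2 brown fat markers, 0 exceeded it on any array.

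Complex V, ATP synthase, was split on FGFR3Act. Of its 8 members 5 were lower than on FGFR3WT (62.5%, against 55.7% of all genes) and 3 higher, with a median of -0.37. At least 1.5-fold lower were 3 (37.5%, against 16.3%). Atp5o, the stalk protein that confers oligomycin sensitivity, had 1011 in FGFR3Act, 2019 in FGFR3KO and 2286 in FGFR3WT (2.26-fold lower on FGFR3Act). Atp5e, the epsilon subunit, had 121, 287 and 305, below the floor on FGFR3Act and at least 2.49-fold lower there than on FGFR3WT. Atp5l, subunit g of the membrane part, had 357, 448 and 640 (1.79-fold lower on FGFR3Act and 1.43-fold on FGFR3KO). Requiring both arrays above the floor leaves out Atp5e, and the median of the other 7 was -0.16.

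Of the other ATP synthase genes, 3 were higher on FGFR3Act than on FGFR3WT and 2 lower. Atp5a1, the alpha subunit of the catalytic head, had 8193 in FGFR3Act, 8485 in FGFR3KO and 6880 in FGFR3WT, higher on both mutant arrays by 1.19- and 1.23-fold. Atp5md, a small membrane subunit, had 5926, 6080 and 4898, with the same order. Atp5j, of the peripheral stalk, had 1461, 1710 and 1328. Atp5mpl had 992, 1899 and 1473, 1.48-fold lower on FGFR3Act than on FGFR3WT and 1.91-fold apart between the mutants.

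Atp5c1, the gamma subunit that turns within the head, was measured by 2 probe sets, 3674, 4194 and 4110 in the one taken and 2124, 2160 and 2154 in the other. Their differences from FGFR3WT were -0.16 and -0.02 on FGFR3Act and 0.03 and 0.0041 on FGFR3KO. Within 1 complex, then, Atp5o and Atp5c1 gave different differences on the same pair of arrays. On FGFR3KO 5 of 8 were higher and 3 lower. At least 1.5-fold apart were 0, against 10.3% of all genes higher and 13.7% lower. The median was 0.17, which was -0.04 after quantile normalisation and -0.0017 after cyclic loess.

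The third pair set FGFR3Act against FGFR3KO, without the wild-type array. Of 54 members 42 were lower on FGFR3Act and 12 higher, or 77.8% lower against 53.2% of all genes, with a median of -0.42 against -0.05 over 5297 genes. At least 1.5-fold lower were 21 (38.9%, against 20.1%) and at least 1.5-fold higher was 1 (1.85%, against 18.5%). At least 2-fold lower were Ndufb8 (2.80-fold), Atp5e (at least 2.34-fold), Cox6a2 (2.03-fold) and Ndufb10 (2.0-fold), or 7.41% against 7.49%, and Sdha was the 1 at least 2-fold higher (1.85%, against 8.33%). By complex the medians were -0.46 for I, -0.14 for II, -0.45 for III, -0.47 for IV and -0.28 for V. In complex V all 8 were lower on FGFR3Act, from 1.03-fold for Atp5md to at least 2.34-fold for Atp5e.

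Ranked within each gene, FGFR3Act gave the lowest of the 3 signals in 35 of 55 members, FGFR3KO in 11 and FGFR3WT in 9. Over all 5382 genes above the floor on an array these shares were 42.0%, 35.2% and 22.8%. The highest signal was on FGFR3KO in 27 members (49.1%, against 37.3% of all genes), on FGFR3WT in 23 (41.8%, against 30.0%) and on FGFR3Act in 5, against 32.6% of all genes. These 5 were Ndufa9, Ndufa10, Ndufs3, Sdha and Uqcrb.

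Since the members were brighter than most genes, they were also set beside bright genes. With genes whose mean signal was at least 483, the lower quartile of the members, 2780 genes and 43 members were left. On FGFR3Act against FGFR3WT, 8 of the 43 were at least 1.5-fold lower and 1 higher, and 15.8% and 9.24% of the 2780 genes were. Their share of lower genes stood nearer to 15.8% than the 25.5% over all members did to 16.3% of all genes. On FGFR3KO against FGFR3WT the counts were 4 higher and 4 lower, against 8.78% and 13.5%. On FGFR3Act against FGFR3KO they were 0 higher and 16 lower, against 19.2% and 20.6%. The medians of the 2780 genes were -0.07, -0.06 and -0.04 in these pairs, in the order given.

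Other mitochondrial genes were counted from lists chosen for their function. Of 53 mitochondrial ribosomal proteins, which translate the chain's mitochondrially encoded subunits, 43 were lower on FGFR3Act than on FGFR3WT (81.1%, against 55.7% of all genes). Their median was -0.33, and 13 were at least 1.5-fold lower (24.5%, against 16.3%). On FGFR3KO 36 of 54 were higher (66.7%, against 48.5% of all genes) and the median was 0.16. The 7 at least 1.5-fold higher are 13%, near the 10.3% of all genes. Mrps11 had 145 in FGFR3Act, 424 in FGFR3KO and 346 in FGFR3WT, and Mrpl52 844, 2436 and 1372.

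Assembly factors of the chain, 2 of them the members Ndufaf1 and Ndufaf4, were lower on FGFR3Act in 15 of 17. This was 88.2%, against 55.7% of all genes, with a median of -0.21. The complex IV assembly factor Coa3 had 793 in FGFR3Act, 1754 in FGFR3KO and 1652 in FGFR3WT, 2.08-fold lower on FGFR3Act than on FGFR3WT. On FGFR3KO their median was 0.02, with a pair of genes far apart in opposite directions. Lrpprc, which stabilises mitochondrial messenger RNAs, had 507, 210 and 629, 3.0-fold lower on FGFR3KO. Tmem70, an assembly factor of ATP synthase, had 466, 1060 and 469, 2.26-fold higher on FGFR3KO.

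A mixed list of 12 genes outside the rule had a median of 0.11 on FGFR3Act and -0.34 on FGFR3KO, where 5 were higher and 7 lower. It joins the chain components Cyc1 and Cycs with other mitochondrial genes, such as carriers, channels, enzymes and an assembly factor. The complex III subunit Cyc1 had 6406, 7682 and 5713, and cytochrome c (Cycs) 453, 396 and 370. Vdac2, a channel of the outer membrane, had 2193, 1542 and 1436. Surf1, needed for complex IV assembly, had 755, 556 and 947, 1.7-fold lower on FGFR3KO, and also stands in the list of assembly factors. Dld also stands in the TCA cycle list, and Etfa, Etfb and Etfdh in the fatty acid oxidation list.

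Other metabolic lists are read against all genes, of which 55.7% were lower on FGFR3Act and 51.5% on FGFR3KO. Of 15 genes in the TCA cycle list 10 were lower on FGFR3Act (66.7%, median -0.12) and 9 on FGFR3KO (60%, median -0.25). This list also holds Pdha1, Pdhb and Dlat of pyruvate dehydrogenase, which is no enzyme of the cycle itself. Their log2 differences on FGFR3KO were -0.68, -0.935 and -0.25, and Pdhb had 1074 there against 2053 on FGFR3WT. Of the 15 genes 6 were higher on FGFR3KO, and enzymes of the cycle itself went both ways there. Of 16 fatty acid oxidation genes 12 were lower on FGFR3Act (75%, median -0.25) and 10 on FGFR3KO (62.5%, median -0.19). Over 13 import genes the median was -0.05 on FGFR3Act and 0.37 on FGFR3KO. Of 17 genes in the glycolysis list 10 were lower on FGFR3Act (58.8%, close to all genes) and 11 on FGFR3KO (64.7%), with medians of -0.09 and -0.14. This list also holds the glucose transporter Slc2a1 and the pyruvate dehydrogenase kinases Pdk1 and Pdk3, which are no glycolytic enzymes. Their log2 differences on FGFR3Act were -0.22, -0.55 and -1.27, while 7 of the 17 genes were higher there. At least 1.5-fold higher on FGFR3Act were 3 of the 17 (17.6%, against 11.4% of all genes), and 2 were lower (11.8%, against 16.3%). The hexokinase Hk2 had 391 on FGFR3Act against 221 on FGFR3KO and 194 on FGFR3WT. Pdk3 had 1029 on FGFR3Act against 2526 on FGFR3KO and 2485 on FGFR3WT, 2.42-fold lower than on FGFR3WT.

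Regulators of mitochondrial biogenesis were lower on FGFR3Act in 10 of 11 (90.9%, against 55.7% of all genes), with a median of -0.37. On FGFR3KO 8 of 11 were lower (72.7%, against 51.5%), with a median of -0.27. Yy1 had 792 in FGFR3Act, 1032 in FGFR3KO and 1253 in FGFR3WT, and the mitochondrial DNA polymerase Polg 73.3, 261 and 216, below the floor on FGFR3Act and at least 1.76-fold lower there than on FGFR3WT. Gabpa, the DNA-binding subunit of GABP, had 920, 674 and 814. The coactivator Ppargc1a and the mitochondrial transcription factor Tfam were below the floor on every array. Of the mitochondrial antioxidant and uncoupling genes 5 could be compared, with medians of -0.20 on FGFR3Act and -0.35 on FGFR3KO.

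**Figure D4:**
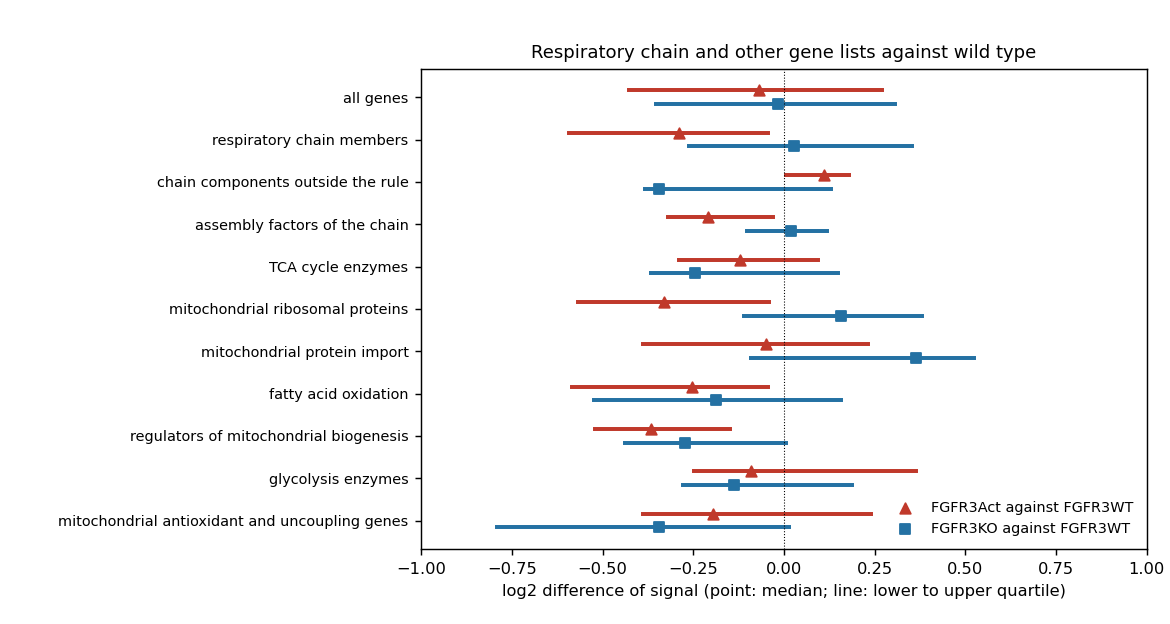
Median (point) and lower to upper quartile (line) of the log2 difference from FGFR3WT for all genes, the respiratory chain members and 9 lists of related genes, for FGFR3Act (triangles) and FGFR3KO (squares). The list labelled as chain components outside the rule mostly holds carriers, channels, enzymes and other genes that are no part of the chain. The TCA cycle list also holds pyruvate dehydrogenase subunits, and the glycolysis list Slc2a1, Pdk1 and Pdk3. On FGFR3Act the regulators of mitochondrial biogenesis lie farthest to the left (-0.37), followed by the mitochondrial ribosomal proteins (-0.33), the members (-0.29) and fatty acid oxidation (-0.25), and the import genes lie farthest to the right on FGFR3KO (0.37).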

How the data were processed

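Total RNA of 3 samples (1 per genotype, 15 μg each per the labels' protocols) was labelled for Affymetrix arrays. The deposited table holds 1 linear intensity per probe set, made by the authors with MAS5 per the submitters' processing notes. For the MAS5 version, scaling target, detection calls and any pooling of the stated 3 samples, the sources used here give nothing. Of 9889 probe sets, 18 are controls, 9053 have 1 symbol, 323 several and 509 none. Symbols were updated through RefSeq (GRCm38.p6, 9041 matched). Where a gene had several probe sets, the one brightest on average over the arrays (log2) was taken. Signals under the 40th percentile of an array were raised to it, and a gene entered a pair if above it on at least one array. Folds of 1.5 and 2 describe size; no test was possible. An arithmetic check used simulated arrays. Python 3.11.15, pandas 2.3.3, numpy 2.4.6 and limma 3.58.1 (cyclic loess) were used. Named genes were members at least 2-fold apart, the 2 highest and 2 lowest of each complex against FGFR3WT, core subunits, isoforms and genes with several probe sets, plus up to 3 outermost genes per related list and some chosen after their values were seen. Members and lists were chosen with earlier results of these data known. Alternatives covered scaling, floor, filter, probe set choice and membership. The number of arrays limits the precision.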

Additional observations from a re-analysis of the deposited data

How the results depend on the processing

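In 12 alternative settings the 24 results (medians and counts at 1.5-fold) gave 288 values. A median was taken as moved when it shifted by more than the error that the disagreement between probe sets gives for a median of that many genes, and a count when it differed by more than 1.5 times. By this measure 275 held and 13 moved. The 275 include values that a setting could not change. Leaving out Ndufab1 and the assembly factors touches no gene of complexes II to V. The mean over probe sets touches only the 3 members with several. A change of sign within the error was counted as held, so the 275 overstate how firm the results are. The medians that changed sign were smaller than that error: all members, complex III and complex V of FGFR3KO against FGFR3WT, and complex II of FGFR3Act against FGFR3KO. On FGFR3Act against FGFR3WT the complex V median was -0.16 both for a floor at percentile 60 and when the 2 arrays had to exceed the floor, and members at least 1.5-fold higher were 2 after quantile normalisation and after cyclic loess. On FGFR3KO against FGFR3WT quantile normalisation gave medians of 0.40 for complex IV and -0.0384 for complex V (main value 0.17; cyclic loess gave -0.0017), a floor at percentile 60 gave 0.11 for all members, and cyclic loess left 3 members at least 1.5-fold higher. A setting chosen after seeing the data, which left out probe sets of the _f_, _g_, _i_, _r_, _s_ and _x_ kinds, gave -0.0816 for all members (main value 0.03), -0.23 for complex III (main value 0.12) and 2 members at least 1.5-fold higher in that pair. On FGFR3Act against FGFR3KO, members at least 1.5-fold higher were 2 after cyclic loess and 0 for a floor at percentile 60. The causes were not tested. The complex II median of FGFR3Act against FGFR3KO (-0.14) was 0.0096 in that setting and without the _s_ and _x_ kinds. In each of the 12 settings all Ndufb genes compared (9, or 7 with plain probe sets) were lower on FGFR3Act than on FGFR3WT. Most settings could not have changed this. The main difference nearest to 0 was -0.15, and another floor, filter or membership does not turn the sign of such a gene. The group was also formed after the values were seen, so this count is no measure of how firm the result is. No paired analysis was possible because each group has 1 column. Without replicate arrays, no difference of a single gene can be set against the spread between cultures.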
